A study of Mus musculus with 12 samples.

Results

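Genes of glucose uptake, glycolysis, lactate exchange and glycogen metabolism were examined in hearts of mice that ran voluntarily on a wheel for 7 days and in hearts of sedentary mice. The set was a list of 34 genes, chosen by gene symbol in the platform annotation, with the probe of highest mean signal taken for each gene. A probe with a member's symbol was found for 30 of the 34 genes, and 27 of them had a detected probe and were tested among 9843 named genes. The 27 measured members were 2 glucose transporters, 7 genes of hexose phosphorylation and upper glycolysis, 6 of lower glycolysis, 2 of lactate metabolism, 9 of glycogen metabolism and Gpd1 of the glycerol 3-phosphate branch.

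The exercised group comprised 6 whole hearts, taken from C57Bl/6 males 8 weeks old, after 7 days of voluntary wheel running, and the sedentary group comprised 6 whole hearts of mice of the same strain, sex and age without exercise. The labels name no transgene, drug or surgery in either group. Biotin-labelled cRNA of each sample was read on 1 Illumina array, and between 16619 and 18708 of 45281 probes were detected per array. The labels number the samples within each group but do not say that each came from a separate mouse, so each p reflects sample-to-sample spread, which may be technical. Precision is limited by the 6 arrays per group. In whole-heart RNA, fewer cells of a type and less RNA per cell cannot be told apart.

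Glucose enters the cardiomyocyte through facilitative transporters and is trapped by phosphorylation. It is then either broken down through glycolysis to pyruvate and lactate or stored as glycogen, which glycogen synthase builds and glycogen phosphorylase degrades. The adult heart burns mainly fatty acids and lactate, and draws on glucose and glycogen when workload or the supply of fuel changes.

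No measured member passed the threshold of an adjusted p of 0.05 in the comparison of exercised with sedentary hearts (limma, Benjamini-Hochberg over all genes), and the lowest adjusted p among the members was 0.22. Over all genes 18 of 9843 were called, or 0.183%, so that a count of 0 among 27 members lies at the background. The log2 fold change, exercised minus sedentary, was above 0 for 22 of 27 members (81.5%) and for 43.4% of all genes tested. The median log2 fold change was 0.14 over the members and -0.04 over all genes. At an unadjusted p under 0.05 there were 6 members (22.2%), 5 of them higher in exercised hearts, beside 15.9% of all genes. Median log2 fold changes by step were 0.33 for glucose transport, 0.17 for upper glycolysis, 0.083 for lower glycolysis, 0.15 for lactate and 0.17 for glycogen. These counts and medians describe the members and no test was made of them as a set.

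**Figure D1:**
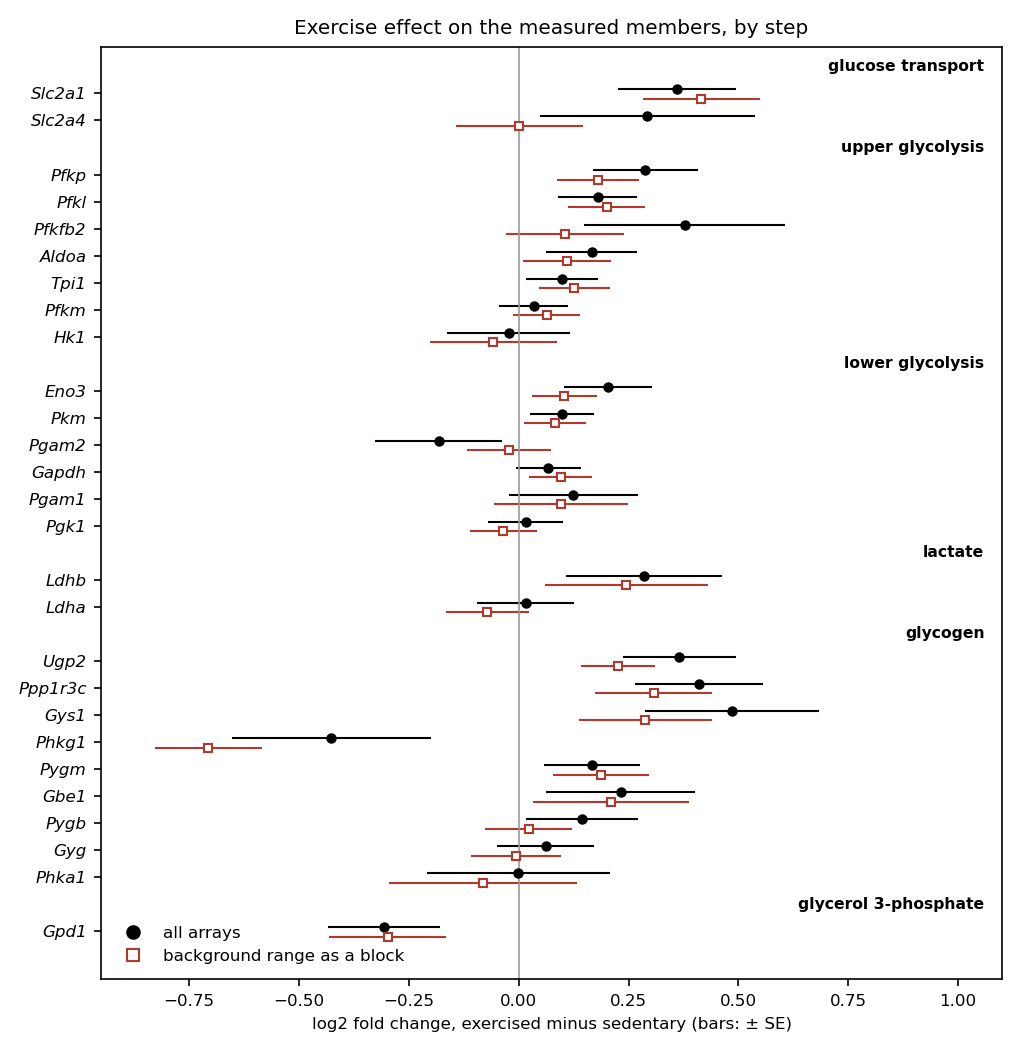
Log2 fold change, exercised minus sedentary, of the 27 measured members ordered by step, with bars of 1 SE; filled circles are the fit of all arrays and open squares the fit with background range as a block. Most circles lie right of 0, Gys1 is farthest to the right at 0.49, and Phkg1 is farthest to the left at -0.43 over all arrays and -0.71 with the block.

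The arrays fell into 2 ranges of raw background, which bear on several members. The 5th percentile of raw signal lay between 38.0 and 41.1 on 8 arrays and between 106.1 and 111.0 on the other 4, which were exercised replicates 2, 3 and 6 and sedentary replicate 2. Neither a slide nor a scan is given for these ranges in the sources used here. With the group in the fit, 9 of 27 members (33.3%) differed between the ranges, 8 of them higher in the high range, beside 35.3% of all genes (limma, adjusted p under 0.05). The members with the largest range effects on the log2 scale, high minus low, were Slc2a4 at 0.87, Phkg1 at 0.84 and Pfkfb2 at 0.82, and Pgam2 was lower by the same measure, at -0.48. Because the high range holds 3 exercised arrays and 1 sedentary array, each member below is given over all arrays and with the range as a block.

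Transcripts of other tissues were also unequal between arrays. The mean log2 intensity of 9 measured hepatocyte markers of 12 listed lay between 7.02 and 13.13 on exercised arrays and between 6.54 and 8.55 on sedentary arrays, with exercised replicates 1, 5 and 6 at 10.82, 12.30 and 13.13; Alb and Fgb had no detected probe. The 10 measured cardiomyocyte markers of 11 listed had a mean log2 intensity between 13.88 and 14.00 on exercised arrays and between 13.83 and 14.00 on sedentary arrays, and the labelled tissue thus carried its defining markers on every array. The 3 measured adipocyte markers of 8 listed averaged between 6.56 and 8.61 on exercised arrays and between 6.69 and 8.09 on sedentary arrays, and Lep, Plin1, Retn and Ucp1 were not detected. The list means of 2 cell types other than cardiomyocytes separated the groups. The 8 measured macrophage markers averaged between 8.74 and 9.13 on exercised arrays and between 9.20 and 9.78 on sedentary arrays (2 called by limma). The 6 endothelial markers averaged between 9.92 and 10.17 on exercised arrays and between 10.25 and 10.51 on sedentary arrays (1 called). Kdr and Fabp4 were undetected. Over all genes 0.183% were called in the same fit. The 6 fibroblast markers overlapped, between 9.02 and 9.45 on exercised arrays and between 9.15 and 9.84 on sedentary arrays. The 4 atrial markers averaged between 11.75 and 13.93 on exercised arrays and between 10.67 and 14.05 on sedentary arrays. The 3 measured red cell markers of 4 listed averaged 10.20 to 10.85 on exercised arrays and 10.03 to 11.76 on sedentary arrays. The part of all these transcripts in the members' values was not tested except where a fit with the hepatocyte mean is given.

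Among the glucose transporters, Slc2a1, the basal transporter GLUT1, was higher in exercised hearts on part of the arrays. Its log2 intensity had a lowest value of 8.81, a median of 9.36 and a highest value of 9.57 on exercised arrays, against 8.62, 8.93 and 9.11 on sedentary arrays. Values of the groups overlapped, with 4 of 6 exercised values above the highest sedentary one. Over all arrays the fold change on the log2 scale was 0.36 (SE 0.13; limma, adjusted p = 0.24). On the 8 low-range arrays the exercised values of 9.57, 9.39 and 9.34 all lay above the sedentary values, which were between 8.62 and 9.11, with a log2 fold change of 0.57 (SE 0.12; limma, adjusted p = 0.094). On the high-range arrays the exercised values of 8.81, 9.39 and 9.02 lay on both sides of the single sedentary value of 9.04, and the log2 difference was 0.036. With array weights estimated in the fit Slc2a1 rose by 0.49 on the log2 scale (limma, adjusted p = 0.033), in a fit that called 2 of 27 members and 5.42% of all genes, and with the range as a block the value was 0.42 (adjusted p = 0.19).

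Slc2a4, the insulin-responsive transporter GLUT4, differed between the background ranges. Its log2 intensity had a lowest value of 10.01, a median of 10.18 and a highest value of 11.07 on exercised arrays, against 9.64, 10.02 and 11.12 on sedentary arrays. The highest value of all belonged to sedentary replicate 2, the high-range sedentary array, and the groups overlapped throughout. Its fitted log2 fold change was 0.29 (SE 0.24) over all arrays, 0.0017 with the range as a block, 0.15 within the low range and -0.36 within the high range. With 1 array left out it lay between 0.16, without exercised replicate 6, and 0.49, without sedentary replicate 2.

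The promoters of Slc2a1, Ppp1r3c and Phkg1 are shown as examples with and without ACGTG, picked after the values and motifs were seen. ACGTG is 1 form of the core of the hypoxia response element. The motif was absent from members of either sign. Those with positive values over all arrays and with the range as a block were Gys1, Pfkp, Pfkl, Eno3, Ldhb, Gbe1, Aldoa, Pkm and Tpi1. Those with negative values in both fits were Phkg1, Pgam2, Hk1 and Phka1. Phkg1 was called lower with the block (adjusted p = 0.036) and not over all arrays (limma, adjusted p = 0.36). Every member found to hold the motif had a positive value over all arrays, and Ldha, Pgk1 and Gyg had negative values with the block. Whether the motif goes with the values was not tested. Each stretch covers 250 bases before and 50 bases after the first listed transcription start, on the gene's strand 5′ to 3′, from RefSeq on GRCm38.p6. Slc2a1 lies on the plus strand at chr4:119108495-119108794, Ppp1r3c on the minus strand at chr19:36736555-36736854 and Phkg1 on the minus strand at chr5:129879039-129879338. Capitals mark ACGTG on either strand, and other forms of that core were not searched or marked.
Slc2a1: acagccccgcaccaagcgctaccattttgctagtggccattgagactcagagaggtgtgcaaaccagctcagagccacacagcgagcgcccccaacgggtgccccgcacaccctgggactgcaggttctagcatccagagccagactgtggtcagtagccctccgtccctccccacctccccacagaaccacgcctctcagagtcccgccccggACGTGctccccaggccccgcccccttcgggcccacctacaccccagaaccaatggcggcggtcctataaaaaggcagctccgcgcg
Ppp1r3c: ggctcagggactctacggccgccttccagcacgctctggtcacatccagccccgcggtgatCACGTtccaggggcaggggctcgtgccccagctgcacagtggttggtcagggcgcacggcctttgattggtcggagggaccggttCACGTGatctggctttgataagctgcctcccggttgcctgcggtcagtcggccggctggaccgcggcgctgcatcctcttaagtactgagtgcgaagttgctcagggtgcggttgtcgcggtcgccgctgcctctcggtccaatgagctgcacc
Phkg1: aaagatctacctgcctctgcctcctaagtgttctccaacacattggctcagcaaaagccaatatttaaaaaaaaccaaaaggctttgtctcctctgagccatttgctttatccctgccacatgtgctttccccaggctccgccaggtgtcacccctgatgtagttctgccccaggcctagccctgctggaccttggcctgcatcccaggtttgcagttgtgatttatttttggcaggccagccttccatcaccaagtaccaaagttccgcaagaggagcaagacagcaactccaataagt
The Ppp1r3c stretch holds 3 occurrences, of which a pair lies on opposite strands in 1 CACGTG, the palindromic E-box.

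Promoters in the RefSeq table were matched for 25 of the 27 measured members, and Gpd1 and Slc2a4 had no entry there. Searched on both strands, ACGTG occurred in 12 of 25 members (48%) and in 19.7% of 27025 genes with a promoter of the same length. CACGTG, which contains ACGTG, occurred in 5 members (20%) and in 7.24% of genes. GGGCGG, the GC box, occurred in 14 members (56%) and in 35.9% of genes. All of these members had a detected probe, whereas the genes beside them were not limited to detected ones. The shares are thus of unlike sets, and their difference was not tested. Ldha had the most ACGTG occurrences, 5, followed by Pfkm and Ppp1r3c with 3 each. A match describes the letters in this window and is no evidence of a bound site. Ldha, Pfkm and Ppp1r3c had log2 fold changes of 0.016, 0.034 and 0.41.

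Upper glycolysis begins with hexokinase and passes through phosphofructokinase, the committed step. Pfkp, the platelet-type phosphofructokinase, had a log2 intensity with a lowest value of 8.79, a median of 9.01 and a highest value of 9.17 on exercised arrays, against 8.30, 8.68 and 9.07 on sedentary arrays. Only 2 of 6 exercised values exceeded all sedentary ones, the highest sedentary value being that of the high-range array. The log2 fold change was 0.29 (SE 0.12; limma, adjusted p = 0.27) and 0.18 (SE 0.093) with the range as a block. Within the low range the exercised values of 8.79, 8.81 and 8.95 were all above the sedentary ones, the nearest of which was 8.78.

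Pfkl, the liver-type phosphofructokinase, had a log2 intensity with a lowest value of 11.11, a median of 11.32 and a highest value of 11.46 on exercised arrays, against 10.85, 11.20 and 11.26 on sedentary arrays. Apart from exercised replicate 2, the exercised arrays, 5 of 6, were all above the highest sedentary array, exercised replicate 6 by a margin in the third decimal. In the fit of all arrays the log2 fold change was 0.18 (SE 0.089; limma, adjusted p = 0.33) and 0.20 with the range as a block. A dimmer Pfkl probe, detected on 10 arrays, gave -0.40 (SE 0.31), so the probes of Pfkl did not share a sign over all arrays. With the range as a block the dimmer probe was at -0.035. Within the low range it was at 0.20, beside 0.21 for the probe used.

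Pfkfb2, the cardiac bifunctional enzyme that makes the phosphofructokinase activator fructose 2,6-bisphosphate, followed the background range. Its log2 intensity had a lowest value of 9.33, a median of 9.80 and a highest value of 10.25 on exercised arrays, against 8.87, 9.40 and 10.14 on sedentary arrays. All 4 high-range arrays lay above all 8 low-range arrays whatever the group. Over all arrays the fold change on the log2 scale was 0.38 (SE 0.23; limma, adjusted p = 0.41), and it was 0.11 with the range as a block and 0.12 within the low range.

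Aldoa, the muscle aldolase, had a log2 intensity with a lowest value of 13.83, a median of 13.94 and a highest value of 14.00 on exercised arrays, against 13.52, 13.72 and 14.10 on sedentary arrays. The sedentary arrays spread more widely and enclosed the exercised ones, with an SD of 0.25 against 0.065 on exercised arrays. Its fitted log2 fold change was 0.17 (SE 0.10; limma, adjusted p = 0.42) and 0.11 with the range as a block. The remaining genes of upper glycolysis had smaller log2 fold changes: 0.10 (SE 0.082) for the triosephosphate isomerase Tpi1, 0.034 (SE 0.078) for the muscle phosphofructokinase Pfkm and -0.023 (SE 0.14) for the hexokinase Hk1. With the block these were 0.13 for Tpi1, 0.064 for Pfkm and -0.058 for Hk1.

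The probes of Pfkm disagreed. In a fit of all detected probes, added after seeing the data, the probe of highest signal had a log2 fold change of 0.034 and a second probe 0.068 (SE 0.10), whereas a dimmer probe detected on all 12 arrays gave 0.66 (SE 0.16; limma, adjusted p = 0.12 over all probes). That dimmer probe had a log2 intensity with a lowest value of 9.66, a median of 9.75 and a highest value of 10.13 on exercised arrays, against 8.68, 9.19 and 9.81 on sedentary arrays. Its log2 fold change was 0.52 with the range as a block and 0.66 within the low range. Which transcripts of Pfkm each probe reads was not examined here, and the probe is singled out after its values were seen.

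Among the genes of lower glycolysis, Eno3, the muscle enolase, had a log2 intensity with a lowest value of 13.66, a median of 13.83 and a highest value of 14.10 on exercised arrays, against 13.45, 13.59 and 13.98 on sedentary arrays. A single exercised array lay above every sedentary array. The log2 fold change was 0.20 (SE 0.10; limma, adjusted p = 0.33) and 0.10 with the range as a block. The other members of lower glycolysis gave log2 fold changes of 0.10 (SE 0.073) for the pyruvate kinase Pkm, 0.067 (SE 0.074) for Gapdh, 0.12 (SE 0.15) for the phosphoglycerate mutase Pgam1 and 0.016 (SE 0.085) for the phosphoglycerate kinase Pgk1. With the block they were 0.083 for Pkm, 0.096 for Gapdh, 0.097 for Pgam1 and -0.035 for Pgk1, which thus turned sign. Pgam1 was at 0.069 in a fit of the authors' deposited values. Pgam2, the muscle phosphoglycerate mutase, had a log2 fold change of -0.18 (SE 0.15), which was -0.021 with the range as a block and 0.082 within the low range. None of these 6 genes had an unadjusted p under 0.05.

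Of the lactate genes, Ldhb, the lactate dehydrogenase subunit that prevails in the heart, had a log2 intensity with a lowest value of 6.37, a median of 6.54 and a highest value of 7.10 on exercised arrays, against 6.01, 6.21 and 6.96 on sedentary arrays. The groups overlapped, sedentary replicates 1 and 3 lying within the exercised values. In the fit of all arrays the log2 fold change was 0.29 (SE 0.18; limma, adjusted p = 0.42) and 0.25 with the range as a block; it was 0.17 without background correction and 0.11 in the authors' deposited values. Ldha, the subunit that prevails in glycolytic muscle, had a log2 fold change of 0.016 (SE 0.11), turning to -0.071 with the block. The Ldhb probe was much the dimmer: Ldha minus Ldhb in log2 intensity averaged 6.71 on exercised and 6.98 on sedentary arrays. How well the Ldhb probe reads its transcript was not examined. The lactate transporters could not be compared: the Slc16a1 probe was detected on 0 arrays, and of 3 Slc16a3 probes 1 was detected on 4 arrays (1 exercised and 3 sedentary) and the others on 0.

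**Figure D2:**
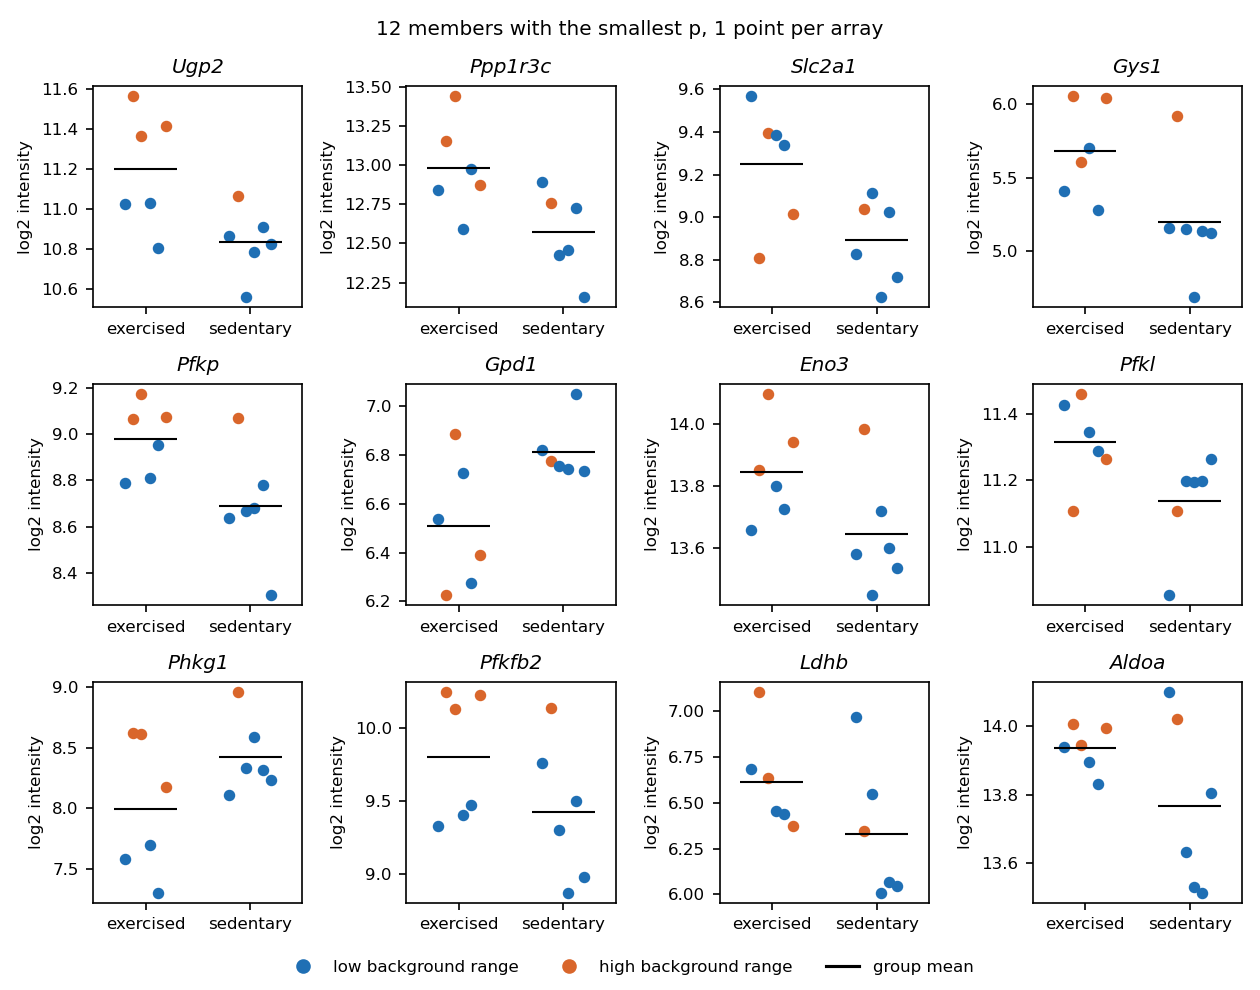
Log2 intensity of the 12 members with the smallest p, 1 point per array, exercised arrays left of sedentary arrays in each panel; blue marks the low and orange the high background range, and lines are group means. Gpd1 and Phkg1 have the lower mean in exercised hearts, the other 10 the higher, and the orange points of Pfkfb2 and Gys1 lie high in both groups.

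Glycogen synthesis includes the 2 members with the smallest p, Ugp2 and Ppp1r3c. Ugp2, which makes the UDP-glucose used for glycogen, had a log2 intensity with a lowest value of 10.81, a median of 11.20 and a highest value of 11.57 on exercised arrays, against 10.56, 10.85 and 11.07 on sedentary arrays. The exercised arrays above every sedentary array were the 3 of the high range. Over all arrays the fold change on the log2 scale was 0.37 (SE 0.13; limma, adjusted p = 0.22), 0.23 (SE 0.085; adjusted p = 0.27) with the range as a block and 0.16 within the low range. With the group in the fit, Ugp2 differed between the ranges by 0.42 on the log2 scale, high minus low.

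Ppp1r3c, the scaffold that targets protein phosphatase 1 to glycogen and so favours synthesis, had a log2 intensity with a lowest value of 12.59, a median of 12.92 and a highest value of 13.44 on exercised arrays, against 12.16, 12.59 and 12.89 on sedentary arrays. Exercised replicates 2, 3 and 5 lay above every sedentary array, and the other exercised arrays overlapped with them. Its fitted log2 fold change was 0.41 (SE 0.15; limma, adjusted p = 0.22) and 0.31 (SE 0.13; adjusted p = 0.34) with the range as a block.

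Gys1, the muscle glycogen synthase, had a log2 intensity with a lowest value of 5.28, a median of 5.66 and a highest value of 6.05 on exercised arrays, against 4.69, 5.15 and 5.92 on sedentary arrays. Sedentary replicate 2, of the high range, stood above the other sedentary arrays, all of which lay below every exercised array. The log2 fold change was 0.49 (SE 0.20; limma, adjusted p = 0.27), 0.29 with the range as a block, 0.41 within the low range and -0.016 within the high range. It was 0.20 without background correction and 0.11 in the authors' deposited values. The probe is dim and was detected on 10 of 12 arrays; a second Gys1 probe, detected on 9 arrays, gave 0.61 (SE 0.17; adjusted p = 0.16 over all probes).

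The remaining synthesis genes had smaller or less certain values. The branching enzyme Gbe1 had a log2 fold change of 0.23 (SE 0.17) and the primer protein glycogenin, Gyg, of 0.061 (SE 0.11). For glycogen breakdown, the muscle phosphorylase Pygm had a log2 fold change of 0.17 (SE 0.11) and the brain-type phosphorylase Pygb of 0.14 (SE 0.13), which was 0.023 with the range as a block. Phka1, the regulatory alpha subunit of muscle phosphorylase kinase, was at -0.00084 (SE 0.21). With the block Gbe1 was at 0.21, Gyg at -0.0063, Pygm at 0.19 and Phka1 at -0.081. Gbe1 was at 0.095 without background correction and 0.052 in the authors' deposited values. None of these 5 genes had an unadjusted p under 0.05.

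Phkg1, the catalytic gamma subunit of phosphorylase kinase, which activates glycogen phosphorylase, was lower on exercised arrays within each background range. Its log2 intensity had a lowest value of 7.30, a median of 7.93 and a highest value of 8.62 on exercised arrays, against 8.11, 8.32 and 8.96 on sedentary arrays. Over all arrays the groups overlapped and the log2 fold change was -0.43 (SE 0.23; limma, adjusted p = 0.36). Within each range they did not overlap, as was so in 1 direction within both ranges for 3.8% of all genes. In the low range exercised replicates 1, 4 and 5 had 7.58, 7.69 and 7.30, whereas the 5 sedentary arrays lay between 8.11 and 8.59. In the high range exercised replicates 2, 3 and 6 had 8.62, 8.61 and 8.17, and sedentary replicate 2 had 8.96.

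With the background range as a block Phkg1 fell by 0.71 on the log2 scale (SE 0.12; limma, adjusted p = 0.036), the only 1 of 27 members called in that fit, in which 36 of 9843 genes or 0.366% were called. In the low range alone the value was -0.79 (SE 0.13; limma, adjusted p = 0.051), and 0 of 27 members were called (4 at an unadjusted p under 0.05, or 14.8% beside 14.3% of all genes), with 10 of all genes or 0.102% called. With array weights it was -0.69 (adjusted p = 0.036), where 533 genes were called; without background correction it was -0.35 and in the authors' deposited values -0.28, over all arrays. With the block and 1 array left out at a time, added after seeing the data, the value lay between -0.74 and -0.62 and the adjusted p between 0.013 and 0.13; it passed in 4 of 11 such fits, without exercised replicate 2, 3 or 6 or without sedentary replicate 1.

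The value of Phkg1 also moved with transcripts of other tissues. With the hepatocyte mean as a covariate and no block it was -0.21 (limma, adjusted p = 0.72), and without exercised replicates 1, 5 and 6 it was -0.11 (adjusted p = 0.81), where 2 of the 3 exercised arrays left belong to the high range. With the block and the hepatocyte mean together it was -0.54 (adjusted p = 0.18). Exercised replicate 4, with the lowest hepatocyte mean of the exercised arrays at 7.02, had a Phkg1 value of 7.69, below every sedentary array. Within each range the lowest exercised value of Phkg1 was on the array with the highest hepatocyte mean: exercised replicate 5 of the low range, with 7.30 at 12.30, and exercised replicate 6 of the high range, with 8.17 at 13.13. Low-range sedentary arrays went the other way. Their lowest Phkg1 value, 8.11, was on replicate 1, which had their lowest hepatocyte mean, 6.54. Replicate 5, with their highest hepatocyte mean of 8.55, had a Phkg1 value of 8.31. The mean of 5 measured fast skeletal muscle markers of 10 listed lay between 7.24 and 8.13 on exercised arrays and between 7.70 and 8.19 on sedentary arrays, Myh1, Myh4, Actn3 and Tnnt3 being undetected, and with the block and that mean together the value was -0.62 (adjusted p = 0.096).

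**Figure D3:**
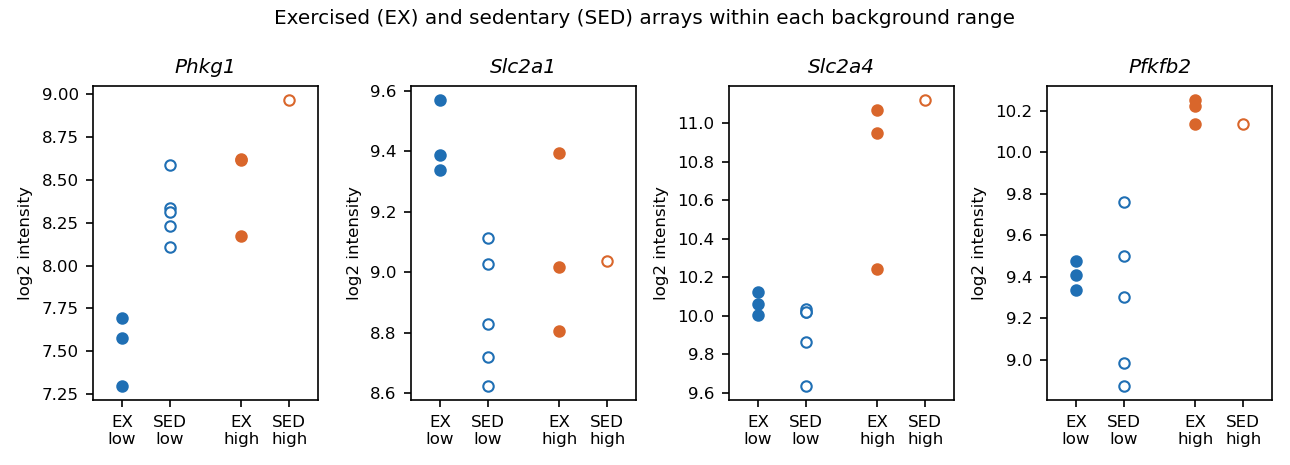
Log2 intensity of 4 members on exercised (EX, filled) and sedentary (SED, open) arrays, split by the low and high background range of the array, 1 point per array. Phkg1 is lower on exercised arrays in both ranges and Slc2a1 higher in the low range alone, whereas Slc2a4 and Pfkfb2 lie higher in the high range in either group.

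Over the whole set, exercised and sedentary arrays of the low range did not overlap for 6 of 27 members (22.2%), beside 10.1% of all genes. Slc2a1, Gys1, Pfkp and Pfkl were the 4 with exercised arrays above, and Gpd1 and Phkg1 the 2 with exercised arrays below. Only 1 member, Phkg1, was separated in 1 direction within both ranges, as were 3.8% of all genes. A count of 1 among 27 members thus lies at the background. With the range as a block 19 of 27 members had a log2 fold change above 0 and the median was 0.097, against 45.2% of all genes and a median of -0.019.

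Gpd1, the cytosolic glycerol 3-phosphate dehydrogenase that draws dihydroxyacetone phosphate out of glycolysis, had a log2 intensity with a lowest value of 6.23, a median of 6.46 and a highest value of 6.89 on exercised arrays, against 6.73, 6.77 and 7.05 on sedentary arrays. Exercised replicate 3 lay within the sedentary values, and the other 5 exercised arrays lay below all of them. In the fit of all arrays the log2 fold change was -0.31 (SE 0.13; limma, adjusted p = 0.27), and it was -0.30 with the range as a block, -0.31 within the low range and -0.20 with the hepatocyte mean as a covariate. Without background correction it was -0.19, and -0.12 in the authors' deposited values. Gpd1 is also abundant in fat, and the adipocyte values given above overlapped between the groups. On exercised arrays Gpd1 and the adipocyte mean were both highest on replicate 3, at 6.89 and 8.61. Both were lowest on replicate 2, at 6.23 and 6.56. On sedentary arrays Gpd1 was highest on replicate 5, at 7.05, and the adipocyte mean on replicate 3, at 8.09. The part of fat in the Gpd1 values was not tested.

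**Figure D4:**
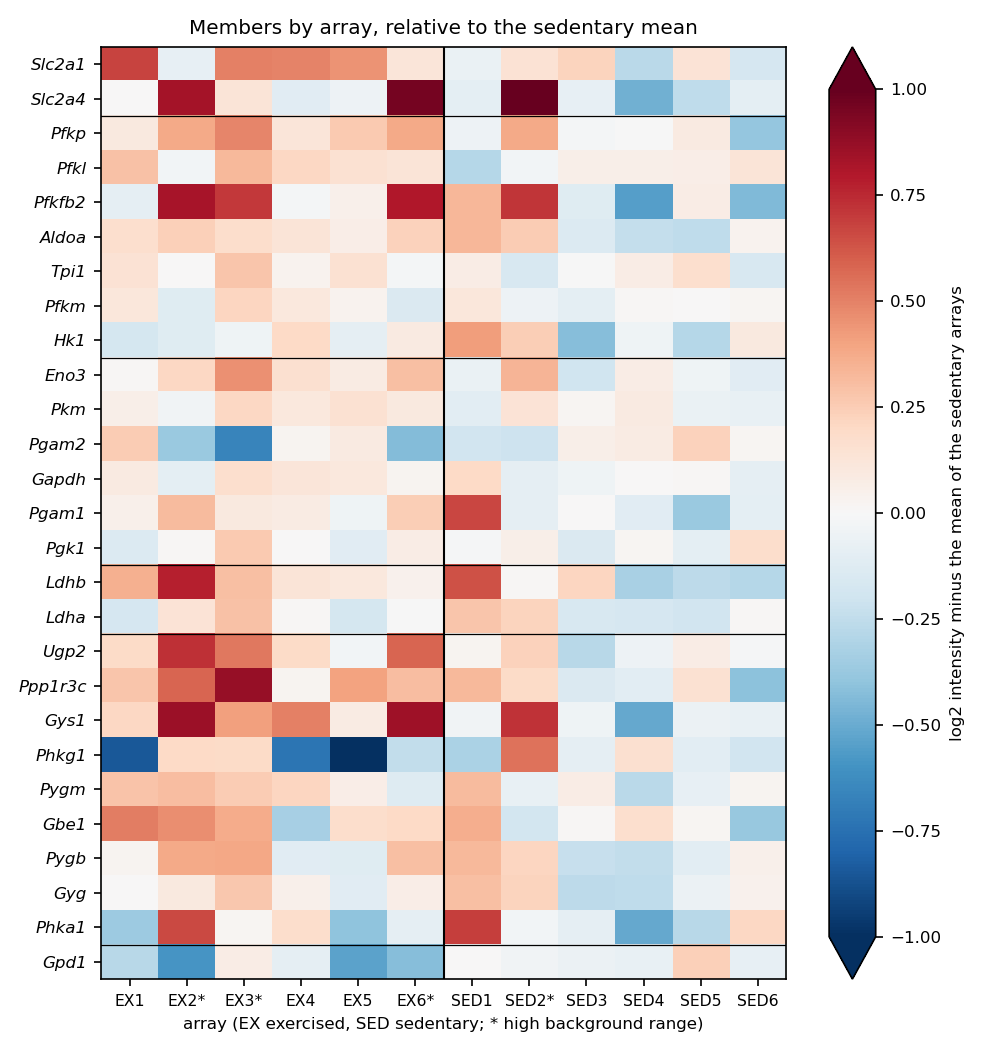
Log2 intensity of each measured member on each array minus its mean over the sedentary arrays, with exercised arrays (EX) left of sedentary arrays (SED) and members grouped by step from transport at the top to Gpd1 at the bottom; colours saturate at a difference of 1 in either direction, and asterisks mark the high background range. Exercised replicate 3 has 25 of 27 members above the sedentary mean and sedentary replicate 3 has 8.

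The members did not move evenly over the exercised arrays. The number of members above the sedentary mean was 20, 19, 25, 21, 16 and 19 of 27 on exercised replicates 1 to 6, against 17, 17, 8, 10, 12 and 11 on sedentary replicates 1 to 6. Sedentary replicates 1 and 2 thus had more members above that mean than exercised replicate 5. The median deviation of the members from the sedentary mean on the log2 scale was between 0.063 and 0.27 on exercised arrays, against -0.082 to 0.14 on sedentary arrays.

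Isoforms of the same step were compared within each array, as the difference of their log2 intensities. Of 9 planned pairs 6 were measured, and none passed an exact two-sided permutation test with Benjamini-Hochberg adjustment over the 6 pairs. The lowest p was that of Pfkl minus Pfkm, which shifted by 0.15 in exercised relative to sedentary hearts (95% interval -0.048 to 0.34; exact p = 0.052, adjusted p = 0.25). Without sedentary replicate 3 this pair passed, with an adjusted p of 0.039. Its direction depended on the probes. With the mean of all detected probes of a gene, the log2 fold change was -0.11 for Pfkl and 0.25 for Pfkm. The shift was 0.25 for Pfkp minus Pfkm (interval -0.076 to 0.58), 0.31 for Pgam1 minus Pgam2 (-0.29 to 0.91) and -0.27 for Ldha minus Ldhb (-0.63 to 0.087). Slc2a1 minus Slc2a4 shifted by 0.067 (-0.72 to 0.85) and Pygb minus Pygm by -0.022 (-0.34 to 0.29), so that shifts of either sign remain within these intervals.

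Of 43 other genes of the pathway, 27 were measured. None was called in either direction (limma, adjusted p), 5 had an unadjusted p under 0.05 and 16 had a log2 fold change above 0, and the median was 0.067. The single gene with an unadjusted p under 0.01 was Slc2a3, the high-affinity transporter GLUT3. Its log2 intensity had a lowest value of 5.90, a median of 6.12 and a highest value of 6.33 on exercised arrays, against 6.17, 6.51 and 6.63 on sedentary arrays, with a log2 fold change of -0.37 (SE 0.12; limma, adjusted p = 0.20) and -0.35 with the range as a block. The groups overlapped. The liver phosphorylase Pygl had the largest log2 fold change of these genes, 0.93, which was 0.17 with the hepatocyte mean as a covariate.

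The genes whose log2 intensity varied most like that of Ugp2, the member with the smallest p, were found over the 12 arrays after removal of the group means. They were Prps1l3 with a Pearson correlation of 0.96, Vmn1r65 with 0.96 and Rap2c with 0.95. With the means of the background ranges also removed the correlations were 0.89, 0.88 and 0.83. These arrays share the background ranges and the normalization, and the correlations are a description.

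Members without a value were Hk2, Gpi1, Pfkfb1 and Eno1, for which no probe with that symbol was in the annotation used and which were not analysed here, and Pfkfb3, Slc16a1 and Slc16a3, which were below the detection filter. The Pfkfb3 probe, for the inducible bifunctional enzyme, was detected on 1 array, an exercised one.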

How the data were processed

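Total RNA of 6 exercised and 6 sedentary hearts, grouped by their labels, was measured on Illumina beadchips. The authors deposited bead intensities without normalization, each with its detection p-value, per the file headers. They also deposited processed values close to a log2 scale, used as an alternative; the submitters' processing notes name lumi, and how they were transformed is unknown here.

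Intensities were background-corrected with limma's neqc from the detection p-values (offset 16) and quantile normalized. A probe was kept, as 17098 of 45281 were, if its detection p was under 0.01 on 6 or more of the 12 arrays. The platform annotation gave 34885 probes 1 symbol, 18 several and 10378 none; the probe of highest mean was taken for each of 9843 genes. Exercised minus sedentary was fitted over all genes with limma 3.58.1 in R 4.3.3 (lmFit, eBayes with trend); genes under 0.05 after Benjamini-Hochberg adjustment were called. Raw signal at the 5th percentile divided the arrays at 75 into 8 of low and 4 of high background. The fit was tested on simulated data with independent noise, no background ranges and planted changes larger than those of the members. That test therefore does not cover the array structure or effect sizes seen here.

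The members, the lists of pathway and marker genes and the settings were chosen with earlier results of these data known. All 34 members are accounted for, with array values for the 12 of smallest p; other pathway genes are named at an unadjusted p under 0.01 and otherwise counted, and Pygl was named after its values were seen. The 3 genes most like the member of smallest p are given. Promoters are from RefSeq (GRCm38.p6), with motifs counted on both strands. Alternatives changed the background correction, normalization, filter, probe rule, variance model, weights and blocks, or left arrays out.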

Additional observations from a re-analysis of the deposited data

Results flagged for a closer look

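In 6 of 86 groups of 6 values examined, 1 array stood apart from the others by Dixon's criterion, where chance gives about 1 in 20, or 4.3. Sedentary replicate 2, the sedentary array of high background, stood above the other sedentary arrays for Slc2a4 at a log2 intensity of 11.12, and below them for the difference Slc2a1 minus Slc2a4 at -2.08. Sedentary replicate 1 stood above the others for Gapdh at 14.14 and for Pgam1 at 8.38, and below them for Pfkl minus Pfkm at -2.93. Sedentary replicate 5 stood above the others for Gpd1 at 7.05.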

How the results depend on the processing

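The count of members called was 0 over all arrays and 0 in each of the 12 fits without a block that left out 1 array; it was 2 with array weights (Phkg1 and Slc2a1) and 1 with the background range as a block (Phkg1), and 0 under the other planned settings. With that block and 1 array left out, Phkg1 passed in 4 of 11 fits, as given above. The median log2 fold change of the members, 0.14, lay between 0.11 and 0.19 with 1 array left out; median scaling gave 0.42, beside 0.26 as the median over all genes, and the high range alone 0.038. The 18 genes called over all genes became 0 with median scaling, 9 with cyclic loess, 1 with no filter, 533 with array weights, 36 with the background range as a block, 10 and 0 within the low and high range alone, 1 with the hepatocyte mean as a covariate, 1 without the 3 arrays richest in liver transcripts, and between 1 and 236 with 1 array left out, the highest without sedentary replicate 2. The number of isoform pairs past the threshold was 0 to 1 with 1 array left out. The labels state no pairing by replicate number. The correlation of same-numbered deviations across genes was between -0.29 and 0.56. It was highest for replicate 2, of the high range in both groups, and cannot settle whether samples were paired. The replicate block gave 3 called genes and 0 called members.

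The sign of some members turned, and the cause was not tested. Hk1 was 0.30 with median scaling, 0.17 as the mean of its probes, 0.066 with array weights, 0.027 in the low range, 0.055 with the hepatocyte covariate and 0.014 without the liver-rich arrays. Phka1 was 0.32, 0.036, 0.22, 0.31 and 0.28 with median scaling, cyclic loess, the high range, the hepatocyte covariate and without the liver-rich arrays. Ldha was -0.059 with cyclic loess, -0.071 with the block, -0.066 in the low and -0.083 in the high range. Pgk1 was -0.033 with array weights, -0.035 with the block and -0.072 in the low range. Pgam2 was 0.087 with median scaling and 0.082 in the low range, where Pygb was -0.024. Pfkl was -0.11 as the mean of its probes. Gyg was -0.0063 with the block and -0.081 in the high range, where Slc2a4 was -0.36, Aldoa -0.040, Eno3 -0.019, Pkm -0.047 and Gys1 -0.016. With 1 array left out Hk1 ranged from -0.11 to 0.060, Ldha from -0.039 to 0.072, Pfkm from -0.0023 to 0.070, Pgk1 from -0.033 to 0.051 and Phka1 from -0.13 to 0.14. Of 740 combinations of a member and a setting, 687 kept sign and call, 46 turned sign and 7 passed the threshold in the same direction. All that passed were of Phkg1, apart from Slc2a1 with array weights. Fits with the block and 1 array left out, or with the block and a marker mean, were run for Phkg1 alone. Isoform pairs were not run without the intensity trend, with array weights or with the hepatocyte covariate, and 3 arrays against 1 in the high range cannot reach the threshold. Gys1 and Gbe1, near the detection limit, have the least signal over background.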
